A study of Mus musculus with 6 samples.

Results

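The AP-1, small Maf and Egr1 transcription factors were examined as 10 genes: Fos, Fosb, Fosl1 and Fosl2 of the Fos family, Jun, Junb and Jund of the Jun family, the small Maf factors Maff and Mafk, and Egr1. They were chosen by name among the 55401 genes of the deposited table, and all 10 had a row. RNA came from mouse macrophages that were raised from bone marrow in medium conditioned by L929 fibroblasts. After 7 days of culture, 3 samples (L-OHP+FUC) were first given 250 µg/ml of fucoidan, a sulfated seaweed polysaccharide, for 12 h and then L-OHP (oxaliplatin, a platinum drug) at 5 µM for 12 h. In 3 samples (L-OHP) the drug was used at the same dose and for the same time, and their labels name no fucoidan. Both groups were exposed to the drug, so every difference is between drug-exposed macrophages with and without fucoidan. Whether the L-OHP samples had a matching 12 h step without fucoidan is not given here, so time in culture may differ too. The labels used here give no strain or age and do not say whether replicates were separate animals or cultures, so a p-value reflects the scatter of these libraries alone and that scatter may be technical.

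AP-1 is a dimer of basic leucine zipper proteins. A Jun protein pairs with a Fos protein, with another Jun or with an ATF-type partner, and the pair binds short palindromic DNA sites. Many of these genes are immediate-early genes, switched on within minutes by MAP kinase signalling and switched off again, and in macrophages they take part in the response to inflammatory and stress signals. Small Maf proteins share the zipper but lack a transactivation domain, and they pair with NRF2 or BACH1 at antioxidant response elements. Egr1 is a zinc finger protein of the same immediate-early class, held back by the NAB corepressors.

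Expression is given as FPKM, fragments per kilobase of transcript and per M fragments (M, mega), as the authors deposited it. All 8 macrophage markers were detected (for example Lyz2 at 10005 to 15185 FPKM and Cd68 at 845 to 1277 FPKM). Of the 8, Csf1r rose (log2 fold change 0.47, limma adjusted p = 0.0233), Mertk fell (-0.74, limma adjusted p = 0.00432), Fcgr1 fell (-0.69, limma adjusted p = 0.0268) and 5 did not pass. By contrast, the neutrophil markers Ly6g and Cxcr2, the dendritic cell marker Flt3 and the T cell markers Cd3e and Cd3d were listed at 0 in all 6 libraries. Other markers of such cells were listed at low values, such as Cd79a at 0.288 to 0.809 FPKM and Xcr1 at 0 to 0.176 FPKM. The 8 neutrophil markers summed to 5.45 to 6.35 FPKM with L-OHP+FUC and 3.79 to 4.26 FPKM with L-OHP, most of it S100a8 (limma adjusted p = 0.0162). The 6 erythroid and megakaryocyte markers summed to 33.0 to 35.7 FPKM with L-OHP+FUC and 17.1 to 21.6 FPKM with L-OHP, most of it Pf4. Of these 6, 2 were tested and both rose, Pf4 (log2 fold change 0.73, limma adjusted p = 0.00888) and Ppbp (0.63, limma adjusted p = 0.0116). The 7 fibroblast and endothelial markers summed to 7.37 to 7.81 FPKM with L-OHP+FUC and 5.21 to 12.1 FPKM with L-OHP. Of these 7, 4 were tested and 0 passed. The part of these RNAs in the results was not tested. In bulk RNA, fewer cells of a type and less RNA per cell cannot be told apart. Steps between low FPKM values implied 15.7 to 18.4 M fragments per L-OHP+FUC library and 16.5 to 18.6 M per L-OHP library. L-OHP replicate 2 stood apart from the other L-OHP libraries for several of the factors, and calls of named genes that rest on it are given with and without it. This library was singled out after the values were seen, so calls made without it are no independent sign of a difference.

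The levels of the factors ranged widely, down to the limit of detection. Over the 6 libraries Jund was more abundant than 96.4% of the 12084 tested genes, Junb than 94.9%, Jun than 85.3% and Mafk than 78.9%. Fos stood above 59.1% of them, Maff above 45.3% and Fosl2 above 24.3%. Tested genes had at least 0.5 FPKM in at least 3 libraries, which 7 of the 10 factors did; Fosl1 reached that level in 2 libraries, and Egr1 and Fosb in 0. With L-OHP+FUC the order of the mean levels was Jund, Junb, Jun, Mafk, Fos, Maff, Fosl2, Fosl1, Egr1 and Fosb, and in the L-OHP samples it was the same except that Egr1 stood above Fosl1. Neighbours in this order whose libraries overlapped in level were Fos and Maff, Maff and Fosl2, and Fosl1 and Egr1 with L-OHP+FUC, and Jund and Junb, Jun and Mafk, and Egr1 and Fosl1 with L-OHP.

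**Figure D1:**
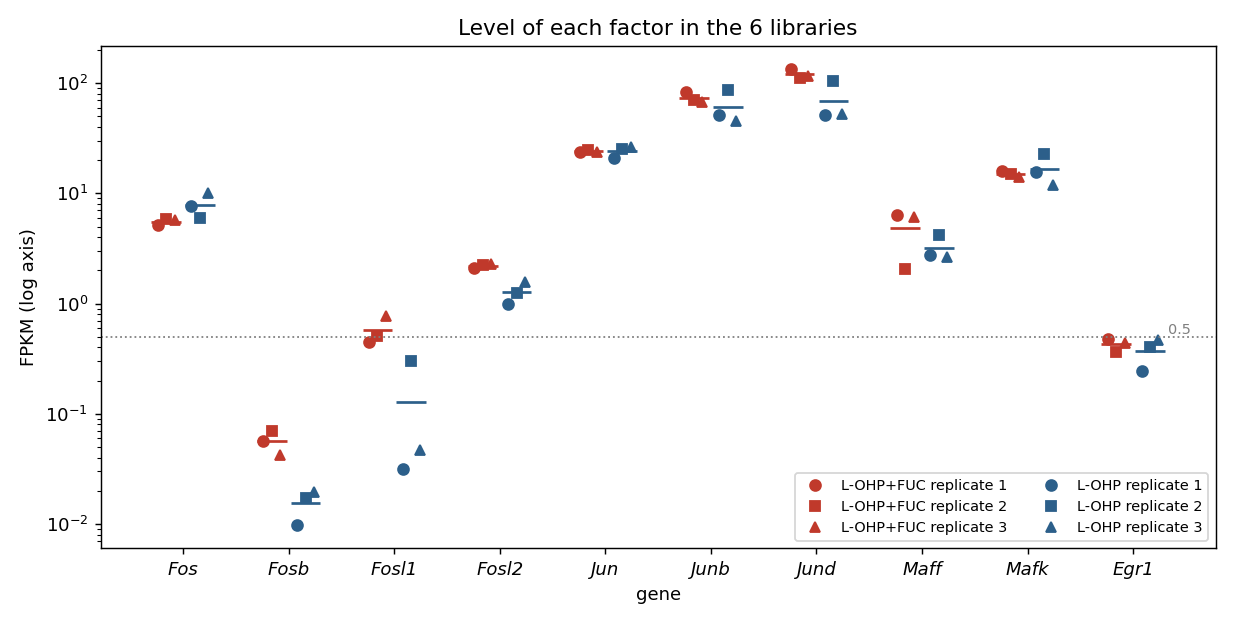
Level of each of the 10 factors in FPKM (log axis), with 1 symbol per library, L-OHP+FUC in red left of L-OHP in blue, horizontal bars at the group means, and a dotted line at the 0.5 FPKM used for testing. Fosl2, Jund, Fosl1 and Fosb lay higher in every L-OHP+FUC library than in any L-OHP library, Fos lay lower, and L-OHP replicate 2 (blue square) sat close to the L-OHP+FUC libraries for Junb and Jund.

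By limma on log2(FPKM + 1) with Benjamini-Hochberg adjustment over all 12084 tested genes, Fosl2 was the 1 factor that rose at an adjusted p of 0.05, none fell and 6 did not pass. Among all tested genes 7.67% rose and 19.3% fell, and 27.0% were called in either direction, so that 1 of 7 higher and 0 of 7 lower is no result about the factors as a set. At an unadjusted p under 0.05, 2 factors (Fosl2 and Jund) lay on the higher side and 1 (Fos) on the lower side, against 13.3% and 28.5% of all tested genes. The groups did not overlap as higher for 2 of the 7 (Fosl2 and Jund) and as lower for 1 (Fos), against 16.1% of all tested genes as higher, 30.9% as lower and 47.0% in either direction. The median log2 fold change was 0.32 over the 7 tested factors and -0.10 over all tested genes. Quantile normalization moved the median of all genes to 0.03. Relative to the median of -0.10, the log2 fold change was 0.61 for Fosl2, 0.98 for Jund, 0.49 for Maff, 0.43 for Junb, 0.10 for Jun, -0.01 for Mafk and -0.31 for Fos; the fold changes of Jun and Mafk changed sign with median ratio rescaling.

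**Figure D2:**
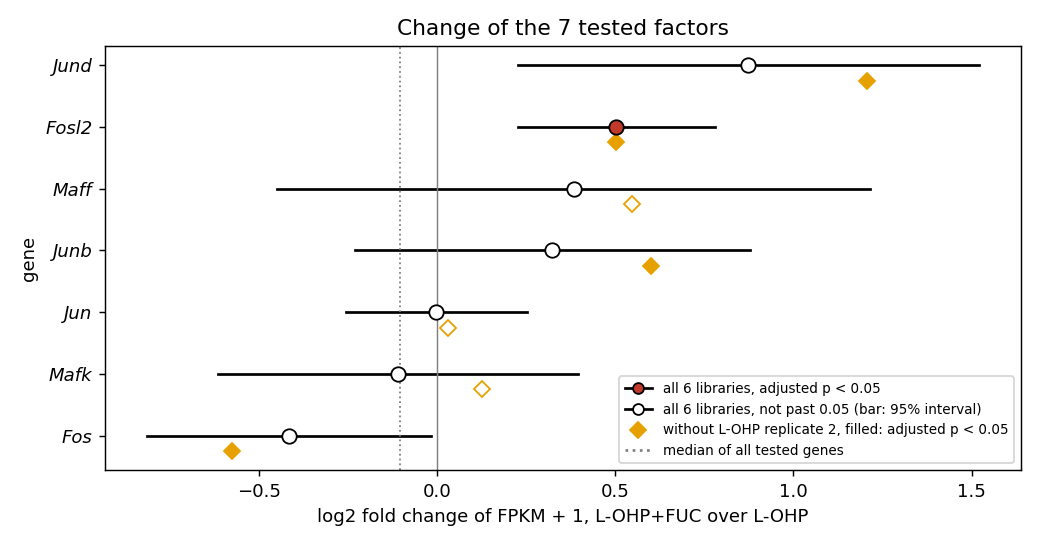
Log2 fold change of FPKM + 1, L-OHP+FUC over L-OHP, of the 7 tested factors (circles, red where the adjusted p was under 0.05; bars are 95% intervals), and the same without L-OHP replicate 2 (diamonds, filled where the adjusted p was under 0.05). Fosl2 passed with all 6 libraries, and Jund, Fosl2, Junb and Fos passed without L-OHP replicate 2, a library singled out after its values were seen.

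In the Fos family, Fosl2 rose, while Fos had lower values with L-OHP+FUC that did not pass. Fos, the classical Jun partner, stood at 5.13, 5.85 and 5.68 FPKM with L-OHP+FUC, against 7.60, 5.996 and 10.1 FPKM in L-OHP replicates 1 to 3. All 3 L-OHP+FUC libraries lay below all L-OHP libraries, but L-OHP replicate 2 lay only just above the highest of them. The log2 fold change was -0.42 (SE 0.17, 95% interval -0.81 to -0.02) and did not pass (unadjusted p = 0.0433, limma adjusted p = 0.108). Without L-OHP replicate 2 the log2 fold change was -0.58 and passed (limma adjusted p = 0.0290). With any other single library left out, Fos had no call (limma adjusted p = 0.174 to 0.257). Fos lies on chromosome 12 at 85473890 to 85477273 of mm10 (plus strand, 4 exons in the longest transcript).

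Fosl2 encodes Fra-2, a Fos protein without the strong transactivation domain of c-Fos. It stood at 2.08, 2.22 and 2.28 FPKM with L-OHP+FUC, against 0.984, 1.25 and 1.55 FPKM in L-OHP replicates 1 to 3. The groups did not overlap, and the L-OHP+FUC libraries lay closer together than the L-OHP libraries. Fosl2 rose with a log2 fold change of 0.50 (SE 0.12, 95% interval 0.23 to 0.78, limma adjusted p = 0.0231). The call ended without L-OHP replicate 1 (limma adjusted p = 0.0701), without L-OHP+FUC replicate 1 (0.0654), replicate 2 (0.0797) or replicate 3 (0.0563), and without a filter on low genes (0.0695), while the log2 fold change stayed between 0.41 and 0.77 under every alternative run. On a longest transcript of 6537 bases the levels correspond to about 227 to 251 fragments per L-OHP+FUC library and 106 to 167 per L-OHP library at the implied depths. Fosl2 lies on chromosome 5 at 32135801 to 32157842 of mm10.

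Fosl1, which encodes Fra-1, was listed at 0.452, 0.506 and 0.776 FPKM with L-OHP+FUC, against 0.0314, 0.304 and 0.0470 FPKM in L-OHP replicates 1 to 3. L-OHP replicates 1 and 3 held about 1 fragment each at the implied depth and L-OHP replicate 2 about 10.5, against about 14.8 to 23.6 in the L-OHP+FUC libraries. The groups did not overlap, and L-OHP replicate 2 lay nearer to the L-OHP+FUC libraries than to its own group. Fosl1, on chromosome 19 at 5447547 to 5455946 of mm10, was below the level for testing. In a fit without a filter its log2 fold change was 0.49 (SE 0.12, limma adjusted p = 0.0707), where 2.26% of 24828 genes rose. With a lower level of 0.1 FPKM in 3 libraries, chosen after seeing the data, it passed (limma adjusted p = 0.0371), where 5.38% of 15732 genes rose; it entered that fit through the L-OHP+FUC libraries and L-OHP replicate 2, so this is no independent sign of a difference. On the opposite strand, Ccdc85b overlaps 2767 bases of the Fosl1 locus and stood at 1.74 to 1.86 FPKM with L-OHP+FUC and 0.923 to 1.45 FPKM with L-OHP, and without a stated use of strand their reads may not be told apart.

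Fosb, on chromosome 7 at 19302696 to 19310051 of mm10, was at the limit of detection. It was listed at 0.0568, 0.0702 and 0.0425 FPKM with L-OHP+FUC, against 0.00972, 0.0172 and 0.0195 FPKM with L-OHP, which corresponds to about 2.63 to 4.16 and 0.606 to 1.21 fragments per library. The groups did not overlap, but a few fragments set these values and no fold is given (log2 fold change on the FPKM + 1 scale 0.06, limma adjusted p = 0.0958 without a filter). The truncated splice form known as deltaFosB cannot be told from full-length Fosb in values per gene.

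The 4 Fos genes summed to 8.38 ± 0.576 FPKM with L-OHP+FUC and 9.29 ± 2.13 FPKM with L-OHP (SD, n = 3). Fos held 64.7%, 66.4% and 67.7% of the sum in the L-OHP+FUC libraries, against 79.2%, 86.1% and 88.1% in the L-OHP libraries. Fosl2 held 25.6% to 27.0% with L-OHP+FUC and 11.4% to 16.6% with L-OHP. Neither pair of ranges overlapped, and these shares describe the same values as above, with no test of their own.

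**Figure D3:**
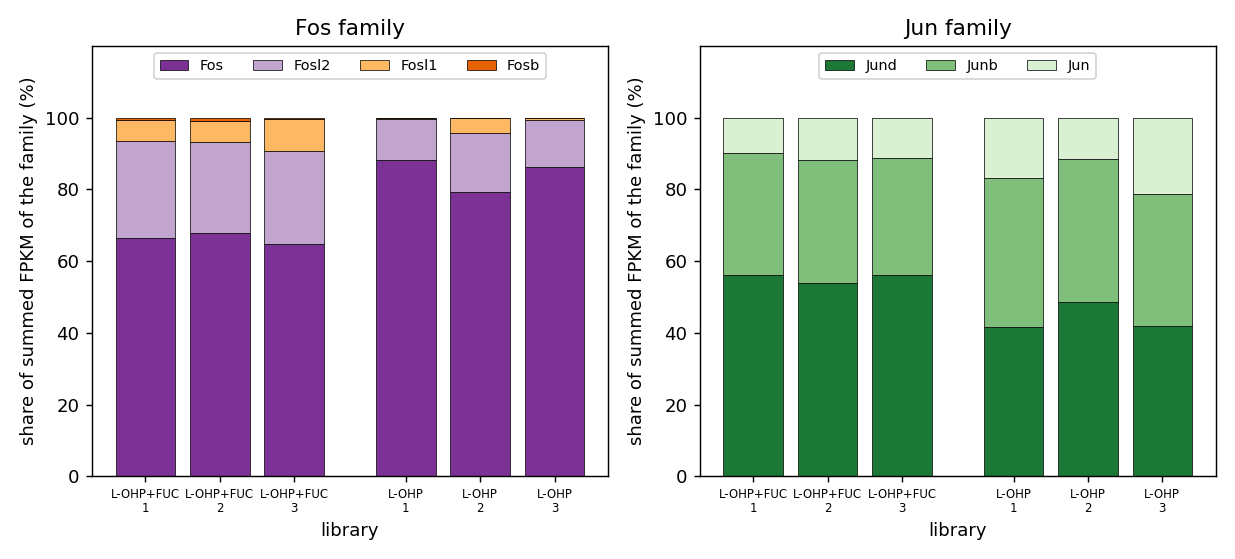
Share of the summed FPKM of the Fos family (left) and of the Jun family (right) held by each gene in each library (bars add to 100%), L-OHP+FUC libraries left of L-OHP libraries. Fosl2 held 25.6% to 27.0% of the Fos family with L-OHP+FUC and 11.4% to 16.6% with L-OHP, and Jund 54.0% to 56.0% of the Jun family with L-OHP+FUC and 41.7% to 48.5% with L-OHP.

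Among the Jun genes none passed in the fit to all 6 libraries without further scaling or correction. Leaving out L-OHP replicate 2, but no other single library, brought Jund and Junb past the threshold. Jund, which is made in resting cells as well and can restrain growth, stood at 135, 112 and 116 FPKM with L-OHP+FUC, against 51.4, 105 and 52.1 FPKM in L-OHP replicates 1 to 3. L-OHP replicates 1 and 3 lay at about the same low level, and L-OHP replicate 2 lay at about 2.02 times their mean, just below the lowest L-OHP+FUC library. The log2 fold change was 0.87 (SE 0.27, 95% interval 0.23 to 1.52) and did not pass (limma adjusted p = 0.0542). It passed without L-OHP replicate 2 (log2 fold change 1.21, limma adjusted p = 0.00623), after median ratio rescaling (1.00, 0.0380) and after correction for GC content and transcript length (0.70, 0.0260), but not after that correction with a replicate term (0.0640). With any other single library left out, Jund had no call (limma adjusted p = 0.104 to 0.156). Jund is a gene of 1 exon on chromosome 8 at 70698949 to 70700616 of mm10, where the antisense gene Gm11175 overlaps it by 919 bases. Gm11175 was listed at 0.421 to 0.576 FPKM with L-OHP+FUC and 0 to 0.857 FPKM with L-OHP, far below Jund.

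Junb, which antagonizes c-Jun at many promoters, stood at 82.3, 70.8 and 67.8 FPKM with L-OHP+FUC, against 50.9, 86.0 and 45.4 FPKM in L-OHP replicates 1 to 3. The groups overlapped because L-OHP replicate 2 held the highest value of all 6 libraries. The log2 fold change of 0.32 (SE 0.23, 95% interval -0.23 to 0.88) did not pass (limma adjusted p = 0.333), but without L-OHP replicate 2 it was 0.60 and passed (limma adjusted p = 0.0184). With any other single library left out, Junb had no call (limma adjusted p = 0.363 to 0.674). Prdx2 overlaps 351 bases of the Junb locus (chromosome 8 at 84974484 to 84978718 of mm10) on the opposite strand, at 26.9 to 30.9 FPKM with L-OHP+FUC and 27.7 to 34.2 FPKM with L-OHP.

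Jun, the gene of c-Jun, lies on chromosome 4 at 95049034 to 95052222 of mm10 and is a gene of 1 exon. It stood at 23.8, 24.6 and 23.6 FPKM with L-OHP+FUC, against 20.8, 25.1 and 26.5 FPKM with L-OHP. The L-OHP+FUC values lay inside the range of the L-OHP values. The 95% interval of the log2 fold change was -0.26 to 0.25 (limma adjusted p = 0.992), so that larger differences than that lie outside the interval.

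The 3 Jun genes summed to 241, 207 and 208 FPKM with L-OHP+FUC, against 123, 216 and 124 FPKM in L-OHP replicates 1 to 3, and L-OHP replicate 2 thus lay within the range of the L-OHP+FUC libraries. Per unit of Fos family FPKM, Jun family FPKM stood at 31.2, 24.01 and 23.7 with L-OHP+FUC and at 14.3, 28.5 and 10.6 with L-OHP. Without L-OHP replicate 2, 3 of the 7 tested factors rose (Fosl2, Jund and Junb) and 1 fell (Fos), where 9.28% of all tested genes rose and 18.7% fell. That library was singled out because of its values for such factors, so this count is no independent result about them.

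Neither small Maf gene of the 10 passed, while their relative Mafg rose. Maff, which is inducible by inflammatory signals, stood at 6.39, 2.05 and 6.12 FPKM for L-OHP+FUC replicates 1 to 3, against 2.77, 4.23 and 2.67 FPKM in L-OHP replicates 1 to 3. L-OHP+FUC replicate 2 was the lowest of all 6 libraries and the others of its group were the highest, so the groups overlapped (log2 fold change 0.38, SE 0.35, 95% interval -0.45 to 1.22, limma adjusted p = 0.443). Without L-OHP+FUC replicate 2 the log2 fold change of Maff was 0.80 and did not pass (limma adjusted p = 0.0506). Mafk, a ubiquitous small Maf, stood at 16.0, 14.97 and 14.0 FPKM with L-OHP+FUC, against 15.6, 22.9 and 11.9 FPKM in L-OHP replicates 1 to 3, and did not pass (log2 fold change -0.11, SE 0.21, 95% interval -0.61 to 0.40, limma adjusted p = 0.728). L-OHP replicate 2 held the highest Mafk value, and without it the log2 fold change was 0.13. Mafg, the most abundant small Maf gene here, rose to 48.3, 51.4 and 49.8 FPKM with L-OHP+FUC, against 35.7, 34.8 and 36.1 FPKM with L-OHP (log2 fold change 0.48, SE 0.08, limma adjusted p = 0.00907). Maff lies on chromosome 15 at 79346621 to 79359076 and Mafk on chromosome 5 at 139791513 to 139802653 of mm10. The Mafg groups were far apart relative to their spread, and its call held under every alternative run.

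Egr1 was low in these macrophages. It stood at 0.481, 0.360 and 0.437 FPKM with L-OHP+FUC, against 0.243, 0.403 and 0.470 FPKM with L-OHP, about 25.3 to 39.8 and 17.95 to 34.6 fragments per library. The groups overlapped, and in the fit without a filter the log2 fold change of 0.06 (95% interval -0.15 to 0.26) did not pass (limma adjusted p = 0.694). Egr1 lies on chromosome 18 at 34859823 to 34864984 of mm10. Its relative Egr2 was more abundant, at 6.59 ± 0.410 FPKM with L-OHP+FUC and 5.46 ± 1.24 FPKM with L-OHP (SD, n = 3; limma adjusted p = 0.263).

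L-OHP replicate 2 was higher than the mean of L-OHP replicates 1 and 3 by factors of 2.02 for Jund, 1.79 for Junb, 1.66 for Mafk and 1.55 for Maff. It was level with them for Jun (1.06) and Fosl2 (0.988), and lower for Fos (0.679). Fosl1 was at 7.76 times, Fosb at 1.18 times and Egr1 at 1.13 times that mean, from few fragments. Transcripts of the factors high in this library have 67.1% GC for Jund, 62.6% for Junb, 58.5% for Fosl1, 57.6% for Maff and 56.2% for Mafk. The others have 57.3% for Egr1 (above Mafk), 56.0% for Fosb, 55.5% for Jun, 53.1% for Fosl2 and 51.9% for Fos. Over the 50 tested genes with over 65% GC, the median log2 deviation from each gene's mean stood at -0.00, -0.03 and 0.04 for L-OHP+FUC replicates 1 to 3 and -0.17, 0.37 and -0.15 in L-OHP replicates 1 to 3. Over the 375 genes with 60 to 65% GC it was 0.13, 0.05 and 0.02 with L-OHP+FUC and -0.16, 0.13 and -0.15 with L-OHP. The 2 groups also differed in the class of lowest GC. Over its 3151 genes with up to 45% GC the median was -0.25, -0.18 and -0.01 with L-OHP+FUC and 0.15, 0.07 and 0.22 with L-OHP. The part of base composition in the values of the single factors was not tested beyond the correction for GC content and length, after which Jund had a log2 fold change of 0.70, Fosl2 of 0.58, Junb of 0.14 and Fos of -0.45.

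**Figure D4:**
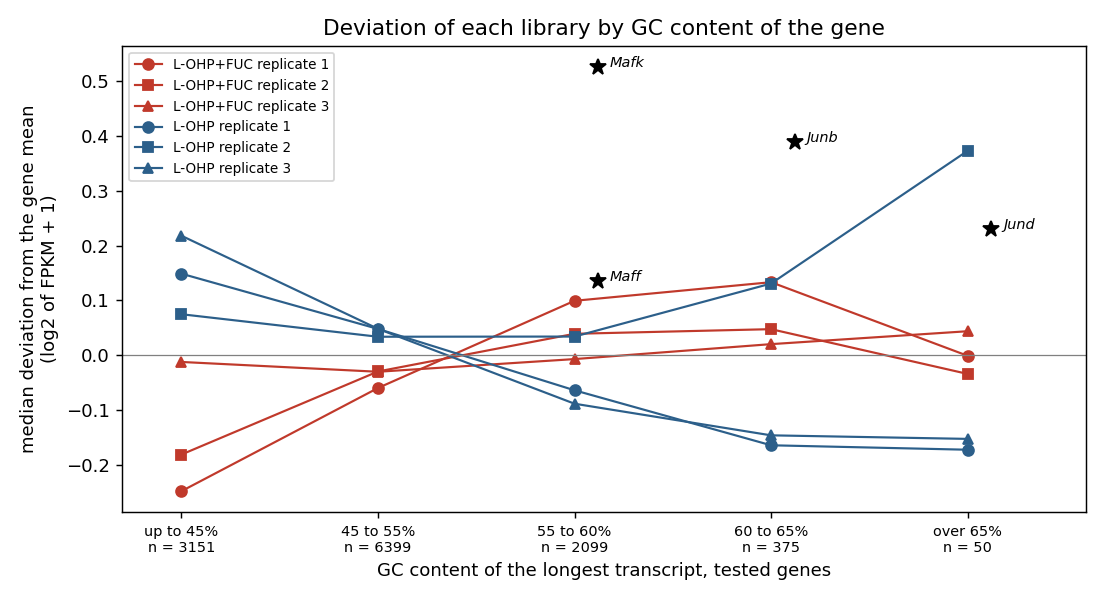
Median deviation of each library from the gene mean (log2 of FPKM + 1) for tested genes in 5 classes of GC content, L-OHP+FUC in red and L-OHP in blue, with stars for the deviation of Jund, Junb, Mafk and Maff in L-OHP replicate 2. In the class over 65% GC, L-OHP replicate 2 stood at 0.37 and L-OHP replicates 1 and 3 at -0.17 and -0.15.

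Among 5909 other tested genes with a mean of at least 5 FPKM, those whose pattern over the 6 libraries was most like that of Jund were Cebpb, Cebpd and Scand1, with root mean square differences of 0.08, 0.12 and 0.14 log2 units between the centred values. Cebpb, a basic leucine zipper factor of macrophage differentiation and inflammation, stood at 129, 116 and 118 FPKM with L-OHP+FUC, against 54.96, 117 and 49.9 FPKM in L-OHP replicates 1 to 3. Its transcript has 67.2% GC, that of Scand1 68.4% and that of Cebpd 51.6%, beside 67.1% for Jund. Most like Fos were Tec, Wfdc17 and Mat2a (0.03, 0.06 and 0.06 log2 units), with 46.4%, 43.7% and 43.1% GC.

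RefSeq windows upstream of the start (GRCm38.p6, the assembly of mm10) were found for 8 of the 10 factors. The 250 bases before the start are shown for Fos, Jun, Junb and 1 of the 3 starts of Maff. None of these windows touches an annotated exon of its own gene, and they hold different CREB-type sites or none. Exons of other genes, such as the antisense gene Junos at the Jun locus, were not checked. The Maff start shown was chosen after its motifs were seen. The sequences run 5′ to 3′ on the strand of the gene, and capitals mark the AP-1 site TGACTCA, the CRE-type site TGACNTCA, the CRE core TGACGT or the Egr site GCGNGGGCG on either strand, where the CRE core can lie inside a CRE-type site.
Fos, chr12:85473640-85473889, plus strand: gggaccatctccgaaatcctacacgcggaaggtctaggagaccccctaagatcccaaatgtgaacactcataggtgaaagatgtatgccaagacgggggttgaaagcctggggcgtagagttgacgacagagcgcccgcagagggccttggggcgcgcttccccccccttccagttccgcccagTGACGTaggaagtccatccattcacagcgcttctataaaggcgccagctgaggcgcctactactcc
Jun, chr4:95052223-95052472, minus strand: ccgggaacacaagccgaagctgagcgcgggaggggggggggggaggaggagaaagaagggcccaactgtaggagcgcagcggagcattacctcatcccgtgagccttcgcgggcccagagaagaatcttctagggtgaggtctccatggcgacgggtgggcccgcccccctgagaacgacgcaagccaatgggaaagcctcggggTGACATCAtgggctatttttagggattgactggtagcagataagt
Junb, chr8:84978749-84978998, minus strand: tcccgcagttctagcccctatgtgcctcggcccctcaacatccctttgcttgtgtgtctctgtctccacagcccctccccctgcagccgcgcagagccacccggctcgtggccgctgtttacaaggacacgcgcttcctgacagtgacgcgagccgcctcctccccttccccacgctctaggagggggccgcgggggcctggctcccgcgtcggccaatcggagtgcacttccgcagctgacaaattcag
Maff, chr15:79347270-79347519, plus strand: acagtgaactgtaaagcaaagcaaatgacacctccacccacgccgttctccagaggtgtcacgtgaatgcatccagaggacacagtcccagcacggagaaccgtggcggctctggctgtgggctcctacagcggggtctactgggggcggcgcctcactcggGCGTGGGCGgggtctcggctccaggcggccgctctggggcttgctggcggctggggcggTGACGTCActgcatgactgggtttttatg

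The Fos window holds the CRE core TGACGT from 66 to 61 bases before the start, with a TATA box (TATAAA) from 33 to 28 bases before it. The Jun window holds TGACATCA from 45 to 38 bases before the start, the kind of site through which c-Jun and ATF2 are known to act on the Jun gene. The Maff window holds the full site TGACGTCA from 29 to 22 bases before the start and an Egr site, and the Junb window holds none of the 4 motifs. The AP-1 site TGACTCA is in none of the windows examined. Of the other Maff windows, the one before 79346621 touches no exon of Maff and holds none of the 4 motifs. The one before 79348402 holds TGACATCA and reaches into a Maff exon. Over 32841 RefSeq windows of the same length, 7.49% hold TGACNTCA, 6.47% TGACGT, 4.46% TGACTCA and 4.70% the Egr site. In windows with 60 to 70% GC these shares are 5.71%, 9.84%, 2.86% and 8.86%. The Jun, Junb and Maff windows shown lie in that range, and the Fos window has 58.4% GC. Egr sites are also present in the windows of Fosl2, Fosb and Mafk, which reach into annotated exons and are not shown. The RefSeq start of Jund lies 1210 bases from the nearest GENCODE start, and its window is not shown. A match of letters is a description of the window and not a bound site.

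Among the other partners of Jun from the ATF, BATF and JDP families, all 8 were tested, 0 rose, 2 fell and 6 did not pass (median log2 fold change -0.02), a share of lower genes near the 19.3% over all tested genes. Without L-OHP replicate 2, Jdp2, named after its values were seen, passed as higher (0.92, limma adjusted p = 0.0130). Atf7, a CRE-binding relative of ATF2, fell to 4.73, 4.99 and 4.79 FPKM with L-OHP+FUC, against 6.76, 6.70 and 7.26 FPKM with L-OHP (log2 fold change -0.44, SE 0.08, limma adjusted p = 0.0130). After correction for GC content and length Atf7 had a log2 fold change of -0.18 and no call (limma adjusted p = 0.141), and it had none without L-OHP+FUC replicate 1 (0.0502) or replicate 2 (0.0519). Batf3, an AP-1 factor of dendritic cell development, fell to 0.621 ± 0.0754 FPKM with L-OHP+FUC, against 1.22 ± 0.330 FPKM with L-OHP (SD, n = 3; log2 fold change -0.44, limma adjusted p = 0.0496). Batf3 lost its call without any library except L-OHP replicate 1 (limma adjusted p = 0.103 to 0.127) and under most alternatives. Atf3, a stress-induced factor named here after its values were seen because it was the most abundant of the list, stood at 175 ± 7.48 FPKM with L-OHP+FUC and 151 ± 9.59 FPKM with L-OHP (limma adjusted p = 0.127).

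Of 12 other Maf factors and their CNC and BACH partners, 7 were tested, of which Mafg rose, Maf fell and 5 did not pass. Maf, the large Maf factor of macrophage identity, fell to 11.1, 11.4 and 12.4 FPKM with L-OHP+FUC, against 18.5, 27.6 and 19.8 FPKM with L-OHP (log2 fold change -0.84, SE 0.15, limma adjusted p = 0.0122). Its groups were well apart, and its call ended only under the GC and length correction with a replicate term (limma adjusted p = 0.0605). Nfe2l2, the gene of NRF2, stood at 67.5, 76.9 and 84.1 FPKM with L-OHP+FUC, against 99.1, 79.9 and 106 FPKM with L-OHP, and did not pass (log2 fold change -0.31, SE 0.14, limma adjusted p = 0.134). Without L-OHP replicate 2, Nfe2l2 passed as lower (-0.43, limma adjusted p = 0.0384) and Nfe2l1, a related factor named after its values were seen, as higher (0.64, limma adjusted p = 0.0196). Of the 13 NRF2 and small Maf target genes 10 rose, 0 fell and 3 did not pass. Their median log2 fold change was 0.62, beside -0.10 over all tested genes, of which 7.67% rose and 19.3% fell. Among those that rose were the sulfiredoxin Srxn1 (1.201, limma adjusted p = 0.00339) and the thioredoxin reductase Txnrd1 (0.68, limma adjusted p = 0.00459). The count of 10 was 6 without L-OHP replicate 1, L-OHP+FUC replicate 2 or L-OHP+FUC replicate 3. It was also 6 without a filter or with a replicate term. Over all tested genes 927 rose in the main fit and, with these libraries left out in the same order, 373, 266 and 629. Without a filter 2.26% of 24828 genes rose, and with the replicate term 554 of 12084. Of the 5 other Egr and NAB genes, 3 were tested and Nab2, a corepressor of Egr1, fell to 10.1 ± 1.05 FPKM with L-OHP+FUC, against 16.5 ± 2.00 FPKM with L-OHP (SD, n = 3; log2 fold change -0.65, SE 0.12, limma adjusted p = 0.0122). With L-OHP+FUC replicate 2 left out, Nab2 had no call (limma adjusted p = 0.0507).

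Of 25 other immediate-early genes 19 were tested, 10 rose, 1 fell and 8 did not pass. The median log2 fold change was 0.50 beside -0.10 over all tested genes, of which 7.67% rose and 19.3% fell. Socs3, a feedback inhibitor of cytokine signalling, rose to 6.09, 4.39 and 5.07 FPKM with L-OHP+FUC, against 1.45, 2.18 and 1.38 FPKM with L-OHP (log2 fold change 1.21, SE 0.16, limma adjusted p = 0.00575). Klf10, a Krüppel-like factor, rose to 7.91, 9.47 and 8.60 FPKM with L-OHP+FUC, against 4.09, 4.97 and 4.89 FPKM with L-OHP (log2 fold change 0.78, SE 0.11, limma adjusted p = 0.00695). Groups of both genes were clearly apart, and both calls held under every alternative run, but the count of 10 did not: it was 5 with the GC and length correction, 4 with that correction and the replicate block, and 5 without a filter. It was 5 without L-OHP replicate 1, 6 without L-OHP+FUC replicate 1, 4 without L-OHP+FUC replicate 2 and 6 without L-OHP+FUC replicate 3. Over all 12084 tested genes, 927 rose in the main fit and 1389 with the GC and length correction. With that correction and the replicate block 648 rose, and without a filter 2.26% of 24828 genes. With these libraries left out, in the same order, 373, 307, 266 and 629 rose. The 1 gene of the list that fell, Gadd45g (named after its values were seen), stood at 9.94 ± 0.576 FPKM with L-OHP+FUC and 19.8 ± 4.12 FPKM with L-OHP (SD, n = 3; log2 fold change -0.91, limma adjusted p = 0.00971). Whether the share of calls differed between this list and the factors was not tested.

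**Figure D5:**
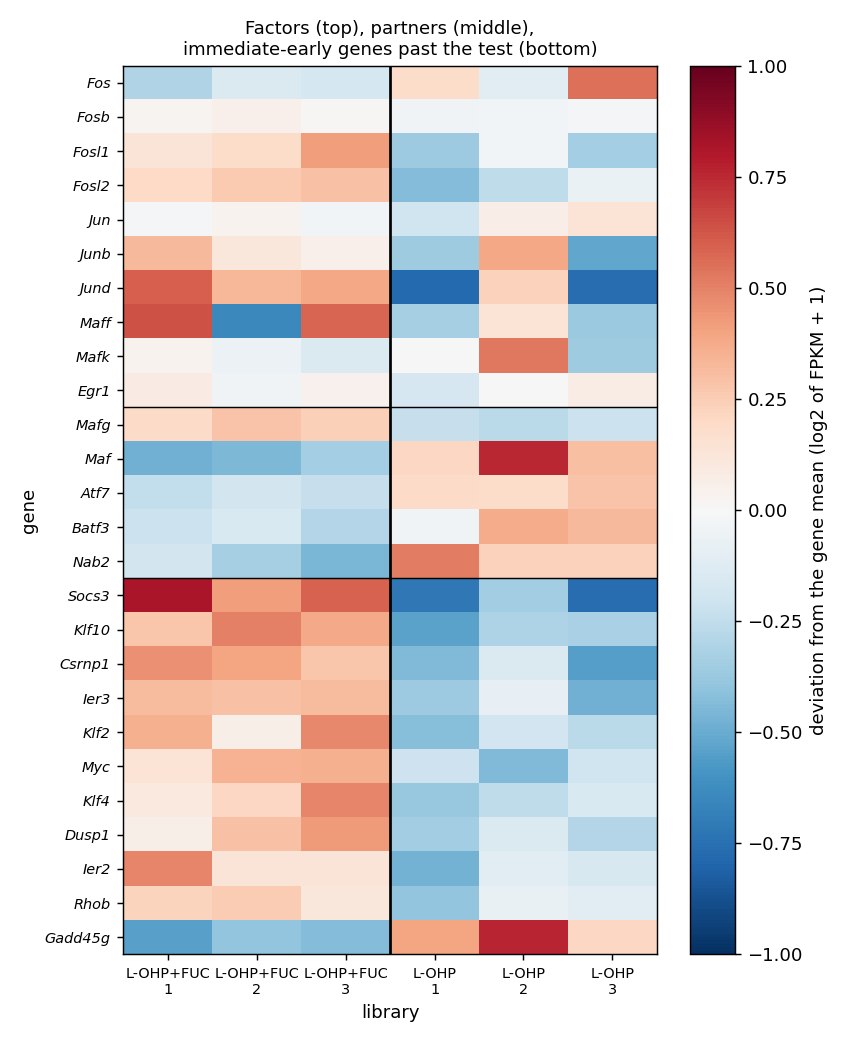
Deviation of each library from the gene mean (log2 of FPKM + 1; red above, blue below, ends of the scale at 1 and -1) for the 10 factors (top), for Mafg, Maf, Atf7, Batf3 and Nab2 (middle) and for the 11 other immediate-early genes past the threshold (bottom), L-OHP+FUC libraries left of L-OHP libraries. Among the factors the groups overlapped for Jun, Junb, Maff, Mafk and Egr1; the immediate-early genes were drawn because they passed, so their separation is no comparison with the factors.

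Upstream of the factors, 0 of 9 genes for SRF, its cofactors and CREB passed by limma, and 3 (Srf, Creb1 and, named after its values were seen, Elk4) had an unadjusted p under 0.05, the smallest adjusted p being 0.0885. Srf, whose protein binds the serum response element of immediate-early genes, stood at 17.3, 15.1 and 14.6 FPKM with L-OHP+FUC, against 9.22, 14.8 and 9.32 FPKM in L-OHP replicates 1 to 3, with L-OHP replicate 2 again near the L-OHP+FUC libraries. Without that library Srf passed as higher (log2 fold change 0.69, limma adjusted p = 0.0118). Creb1 stood at 1.90 ± 0.566 FPKM with L-OHP+FUC and 3.03 ± 0.671 FPKM with L-OHP (SD, n = 3; limma adjusted p = 0.0936). Of 28 genes of the MAP kinase cascades 23 were tested, 6 rose, 2 fell and 15 did not pass, where 7.67% of all tested genes rose and 19.3% fell. The count of 6 was 2 without L-OHP replicate 1, L-OHP+FUC replicate 1 or L-OHP+FUC replicate 2, and 3 without L-OHP replicate 3 or L-OHP+FUC replicate 3. It was also 2 with the GC and length correction and the replicate block, and 8 with median ratio rescaling or without L-OHP replicate 2. Over all tested genes 927 rose in the main fit. In the left-out fits with a count of 2 or 3, in the same order, 373, 307, 266, 615 and 629 rose. With the GC and length correction and the replicate block it was 648, with median ratio rescaling 1581, and 1121 without L-OHP replicate 2. Map3k1, a kinase upstream of JNK and of c-Jun phosphorylation, fell to 4.10, 5.03 and 5.33 FPKM with L-OHP+FUC, against 10.4, 12.7 and 11.4 FPKM with L-OHP (log2 fold change -1.11, SE 0.12, limma adjusted p = 0.00432). Mapkapk2, the p38 substrate MK2 that acts on unstable mRNAs, rose to 422, 349 and 361 FPKM with L-OHP+FUC, against 203, 236 and 182 FPKM with L-OHP (log2 fold change 0.87, SE 0.13, limma adjusted p = 0.00867). Both groups of libraries were apart for each gene.

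Of 16 known AP-1 target genes 15 were tested, 5 rose, 0 fell and 10 did not pass (median log2 fold change 0.32). Over all tested genes 7.67% rose, 19.3% fell and the median was -0.10. The count of 5 was 2 without L-OHP replicate 1 or L-OHP+FUC replicate 1, and 3 without L-OHP+FUC replicate 2 or 3. It was also 2 without a filter, and 7 with the GC and length correction. Over all tested genes 927 rose in the main fit and 1389 with that correction. With these libraries left out, in the same order, 373, 307, 266 and 629 rose, and without a filter 2.26% of 24828 genes. Mmp9, a gelatinase, rose to 58.7, 64.1 and 50.8 FPKM with L-OHP+FUC, against 22.8, 27.5 and 19.6 FPKM with L-OHP (log2 fold change 1.28, SE 0.15, limma adjusted p = 0.00436). Plaur, the urokinase receptor, rose to 27.2, 26.2 and 22.7 FPKM with L-OHP+FUC, against 11.8, 11.6 and 14.8 FPKM with L-OHP (log2 fold change 0.95, SE 0.12, limma adjusted p = 0.00583). Its ligand Plau did not pass, at 49.2 ± 3.90 FPKM with L-OHP+FUC and 64.7 ± 10.7 FPKM with L-OHP (SD, n = 3; log2 fold change -0.38, limma adjusted p = 0.0849).

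In the authors' deposited table, 3 of the 10 factors had a q-value under 0.05, all higher, where 2.22% of all genes in the authors' deposited table were higher and 3.17% lower at that q. Among the tested genes the authors' deposited table had 9.93% higher and 12.9% lower at that q. The authors' deposited table gave Fosl2 a q-value of 0.000619 at 1.73-fold, Jund 0.00260 at 1.75-fold and Fosl1 0.0132 at 4.54-fold. Of these, the authors' deposited table marked Fosl1 as significant, a mark it gave to no other factor. For Fos the q-value in the authors' deposited table was 0.247.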

How the data were processed

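Libraries were made from rRNA-depleted, heat-fragmented total RNA of the macrophages, per the labels' protocols. The submitters' processing notes name HISAT2, StringTie, DESeq2, limma, bcl2fastq 2.0 and mm10 without roles. How reads were counted, whether strand was used and which annotation was taken are not stated there. Expression was deposited by the authors as FPKM per library in 1 table of 55401 genes, and their placeholder 0.0001 was turned into 0. The authors' fold is a ratio of mean FPKM, L-OHP+FUC over L-OHP, which held within 1% for all 55401 genes, and another deposited column is its log2. The authors also deposited p-value and q-value columns, per the file headers, from an unstated tool.

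Without counts, tests used limma 3.58.1 in R 4.3.3 on log2(FPKM + 1), with 1 term for group, trended empirical Bayes variances, two-sided p-values and Benjamini-Hochberg adjustment at 0.05. Testing required 0.5 FPKM in 3 or more of the 6 libraries (12084 genes), and fold changes on this scale understate those of low genes. Depth was implied from steps between low FPKM values of 1-transcript genes of 400 bases or more, so implied fragments (longest transcript) are approximate. Coordinates, overlaps, GC content and lengths came from GENCODE M21 (GRCm38).

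The factors and the 8 lists of related genes were chosen with earlier results of these data known. Named were all 10 factors; of each list the 2 tested genes with the smallest p, with every called gene of the ATF, Maf and Egr partner lists; Mmp9, Plau, Plaur and Nfe2l2; and the 3 genes most like Fos and most like the tested factors with the highest (Jund) and lowest (again Fos) log2 fold change. Alternatives comprised other pseudocounts, filters and scalings, a replicate block, no trend, a loess correction for GC content and length (span 0.3) and leaving out each library; filters of 0.1 FPKM, with either pseudocount, were chosen after seeing the data.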

Additional observations from a re-analysis of the deposited data

How the results depend on the processing

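Over all 12084 tested genes, 927 rose and 2335 fell. The higher genes numbered 561 of 24828 without a filter, 1581 with median ratio rescaling, 1565 with quantile normalization, 554 with the replicate block and 266 to 1121 when a library was left out. They numbered 1389 with the GC and length correction and 754 of 5917 with a mean of at least 5 FPKM. With a filter of 0.1 FPKM they numbered 847 of 15732, and 839 with the pseudocount of 0.1. The lower genes numbered 1520 without a filter, 966 with a mean of at least 5 FPKM, 1359 with quantile normalization, 1437 with the GC and length correction, 800 with that correction and the replicate block, and 835 to 2256 when a library was left out. Factors past the threshold as higher numbered 1 in the main fit, 0 without a filter or with a mean of at least 5 FPKM (which removes Fosl2), 2 with median ratio rescaling, 2 with the GC and length correction, 2 with a filter of 0.1 FPKM with either pseudocount, and 0 to 3 when a library was left out. Factors past it as lower numbered 0, and 0 to 1 when a library was left out; those past it in either direction then numbered 0 to 4. Genes called in the 8 lists of related genes numbered 39, and 23 without a filter, 22 with the GC and length correction and the replicate block, and 19 to 41 when a library was left out. Over all tested genes 3262 (27.0%) were called in the main fit and 2081 of 24828 without a filter. With the GC and length correction and the replicate block 1448 were called, and 1101 to 3377 when a library was left out. The sign turned for Jun (main log2 fold change -0.00) with median ratio rescaling (0.12) and over the left-out libraries (-0.10 to 0.068), and for Mafk (-0.11) with median ratio rescaling (0.010) and over the left-out libraries (-0.32 to 0.13). Scaling moved the median log2 fold change of all genes from -0.10 to -0.01 (median ratio) and 0.03 (quantile). The cause of these moves was not tested.

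Samples of the 2 groups share only a replicate number. Across genes, the deviations of same-numbered libraries correlated at -0.04, -0.07 and 0.08, and L-OHP+FUC replicate 1 correlated best with L-OHP replicate 2 (0.16). With the replicate block Fosl2 kept its call (adjusted p = 0.0394), and the other 6 tested factors had none. Depth limits Fosb, Fosl1 and Egr1 most.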
